A study of Homo sapiens with 6 samples.

Results

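Cells watch for nucleic acid in the wrong place with a small set of proteins in the cytosol, and the genes of 8 of these proteins were followed here in human myeloma cells 1 day after carbon-ion irradiation. They are CGAS, STING1, TBK1, IRF3, TREX1, MAVS, RIGI and AIM2. Members were taken as genes with a probe set (a group of array probes read as 1 value) that names no other gene. Of the 8 genes, 7 had such a probe set, 1 each, out of 18417 genes named in this way on the array. TREX1, encoding the exonuclease that degrades cytosolic DNA, was represented only by a probe set that also names ATRIP, so no value is assigned to it. The series compared cells of RPMI 8226, an established cell line that came from the malignant plasma cells of human multiple myeloma, at 2 doses of carbon ions, a particle radiation that deposits energy densely along its track. The 0 Gy group (3 arrays) received no dose and the 6 Gy group (3 arrays) received 6 Gy, and RNA was taken from both 1 day later. Both groups were grown in the same serum-supplemented medium, and no transgene, deletion or drug is named for either. All samples come from this 1 line. Nothing in the labels says that the 3 samples of a group were cultured separately, and the p-values then reflect only how far these samples vary, possibly for technical reasons.

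The pathway has 3 arms that converge. In the DNA arm, cGAS (CGAS) binds double-stranded DNA in the cytosol, such as DNA from micronuclei or damaged mitochondria, and makes the cyclic dinucleotide cGAMP, which activates STING (STING1) on the endoplasmic reticulum. STING recruits the kinase TBK1, which phosphorylates the transcription factor IRF3, and IRF3 then drives type I interferon and chemokine genes together with NF-kappaB. In the RNA arm, RIG-I (RIGI) detects RNA with a 5′ triphosphate and signals through the mitochondrial adaptor MAVS to the same kinase and factor. AIM2 also binds cytosolic DNA but assembles an inflammasome that activates caspase-1.

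IRF3 and NF-kappaB act through short sequences in promoters, so the 250 bases upstream of the annotated start are shown for the member genes RIGI and AIM2, which carry a match, for IFNB1, the classical target of IRF3, and for CXCL10 and IFI6, which rose after irradiation. They are RefSeq reference sequence of GRCh38.p14, written 5′ to 3′ on the gene's own strand and not read from these cells. Capitals mark matches to the core bound by interferon regulatory factors (IRFs), AANNGAAA, on either strand, so a match on the opposite strand shows as its reverse complement.
RIGI (chr9:32526197-32526446, minus strand): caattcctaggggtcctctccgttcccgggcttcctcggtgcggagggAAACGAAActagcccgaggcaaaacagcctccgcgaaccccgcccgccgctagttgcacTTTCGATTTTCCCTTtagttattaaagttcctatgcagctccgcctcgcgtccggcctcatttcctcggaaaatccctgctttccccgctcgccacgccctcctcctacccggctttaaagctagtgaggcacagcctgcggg
AIM2 (chr1:159076767-159077016, minus strand): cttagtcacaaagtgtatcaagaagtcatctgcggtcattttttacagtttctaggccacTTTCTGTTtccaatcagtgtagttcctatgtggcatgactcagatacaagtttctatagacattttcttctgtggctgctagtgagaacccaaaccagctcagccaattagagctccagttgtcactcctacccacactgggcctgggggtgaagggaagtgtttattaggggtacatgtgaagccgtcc
IFNB1 (chr9:21077943-21078192, minus strand): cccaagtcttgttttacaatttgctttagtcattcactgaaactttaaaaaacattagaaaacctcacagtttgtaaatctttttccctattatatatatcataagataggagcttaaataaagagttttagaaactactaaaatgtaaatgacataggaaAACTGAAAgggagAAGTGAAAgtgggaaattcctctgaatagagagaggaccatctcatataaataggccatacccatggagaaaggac
CXCL10 (chr4:76023498-76023747, minus strand): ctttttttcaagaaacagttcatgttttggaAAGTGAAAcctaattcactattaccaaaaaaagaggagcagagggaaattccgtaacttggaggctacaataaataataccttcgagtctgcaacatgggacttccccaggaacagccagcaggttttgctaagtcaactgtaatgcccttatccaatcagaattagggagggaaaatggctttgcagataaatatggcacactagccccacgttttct
IFI6 (chr1:27672193-27672442, minus strand): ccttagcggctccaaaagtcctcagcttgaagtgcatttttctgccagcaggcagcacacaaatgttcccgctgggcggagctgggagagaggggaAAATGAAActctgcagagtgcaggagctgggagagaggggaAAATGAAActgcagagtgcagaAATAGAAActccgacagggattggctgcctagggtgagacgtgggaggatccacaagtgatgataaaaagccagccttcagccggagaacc
The IFNB1 window held 2 core matches, starting 89 and 76 bases upstream of the start, and 1 match to the NF-kappaB consensus starting 66 bases upstream, which no core match overlapped. The CXCL10 window held 1 core match, starting 219 bases upstream, and 2 NF-kappaB matches starting 177 and 122 bases upstream, again without overlap. The RIGI window held 3 core matches, of which the pair on the opposite strand share 1 base, and 1 NF-kappaB match on the opposite strand. IFI6 had 3 core matches and no NF-kappaB match, and AIM2 had 1 and none. At least 1 core match occurred in 20.6% of all 27305 promoter windows of this length, 3 or more occurred in 1%, and an NF-kappaB match occurred in 5.05%. Of the 4 members with a promoter in the reference table, RIGI and AIM2 had a core match, while TBK1 and MAVS had none of these letters in the window. Promoters of CGAS, STING1 and IRF3 were not analysed here. A match describes letters and is not a measured binding site.

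STING1 was the member whose mRNA rose after irradiation, and the other 6 measured members did not pass the test. Values are the authors' log2 intensities, a difference of 1 being 2-fold, and a gene is called changed at a Benjamini-Hochberg adjusted p under 0.05 in limma over all 18417 genes. STING1 read 8.45, 8.52 and 8.45 on the unirradiated arrays and 8.91, 8.91 and 8.89 on the irradiated arrays. All 3 irradiated values lay above all 3 unirradiated values, and the irradiated arrays spanned only 0.0228 log2 units. The log2 difference was 0.43 ± 0.06 (SE, n = 3 per group), or 1.35-fold with a 95% interval of 1.22 to 1.49, and the limma adjusted p was 0.00235. Over 16 alternative settings the STING1 difference ran from 0.40 to 0.48 and its limma adjusted p from 2.95e-04 to 0.0207. Among all genes tested, 14.5% were called and 6.35% were called higher, so 1 called of 7 (14.3%) is a share near the background and is not a result about the members as a set. Without unirradiated replicate 1 or 2, the number of genes called over the whole array was 1584 or 1471 in place of 2676, and STING1 remained called in both cases. In bulk RNA a change in which cells are present and a change in RNA per cell cannot be told apart. The median log2 difference was -0.04 over the 7 members and 0.04 over all genes.

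**Figure D1:**
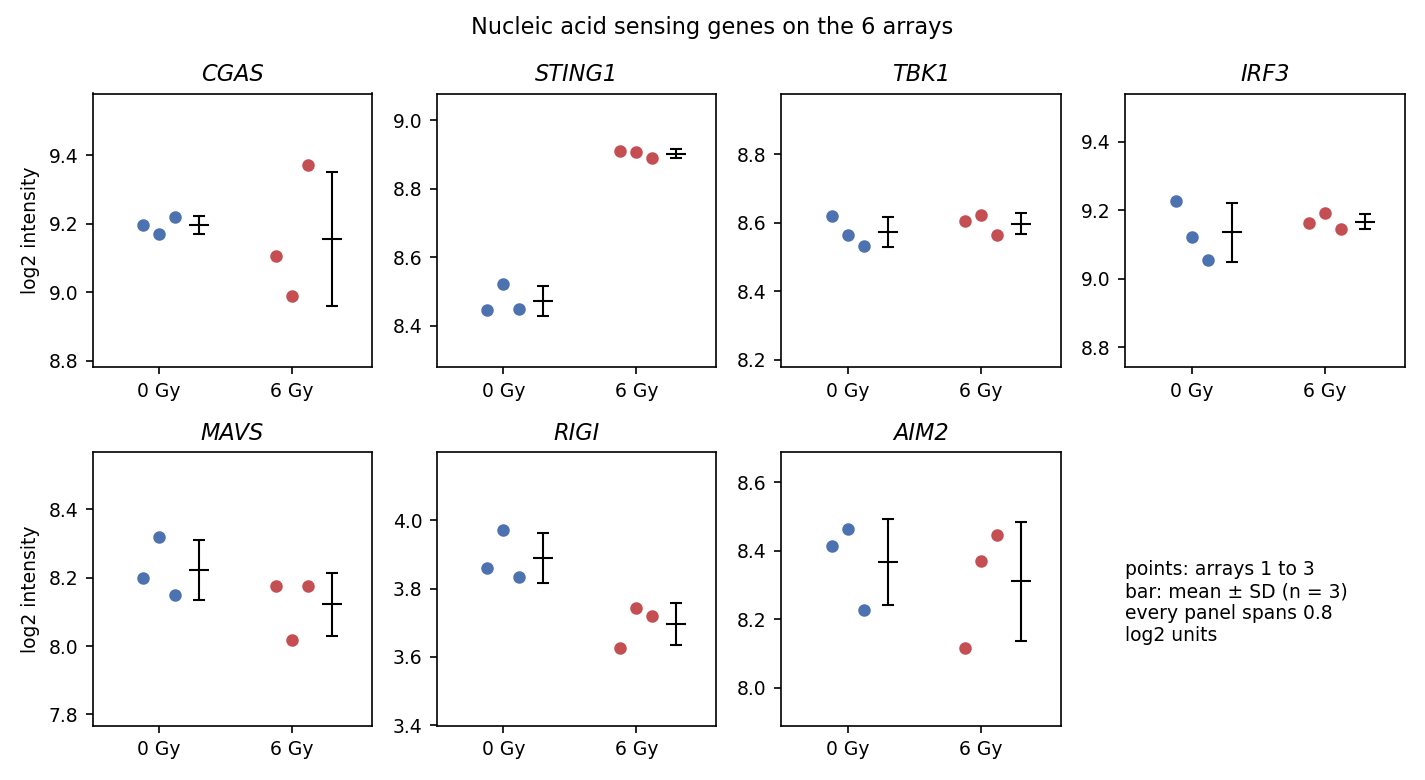
Log2 intensity of the 7 members (y axis; every panel spans 0.8 log2 units) on the 3 unirradiated (blue) and 3 irradiated (red) arrays, with the mean and SD of each group as a black bar. STING1 lies at 8.89 to 8.91 after 6 Gy against 8.45 to 8.52 at 0 Gy, RIGI is the dimmest and its groups do not overlap, and the other 5 members overlap.

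CGAS, the DNA sensor that acts before STING, read 9.20, 9.17 and 9.22 without irradiation and 9.11, 8.99 and 9.37 after it. The unirradiated arrays were tightly grouped within 0.0519 log2 units, whereas the irradiated arrays spanned 0.381 and lay on both sides of them. The difference was -0.04 ± 0.10 (SE), with a 95% interval from -0.25 to 0.17 and a limma adjusted p of 0.816. Without irradiated replicate 2 its sign turned, to 0.04.

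Downstream of STING, the kinase gene TBK1 read 8.62, 8.57 and 8.53 on the unirradiated and 8.61, 8.62 and 8.56 on the irradiated arrays. IRF3, the factor that TBK1 phosphorylates, read 9.23, 9.12 and 9.06 without and 9.16, 9.19 and 9.15 with irradiation. The groups of both genes overlapped. The log2 difference of TBK1 was 0.03 (95% interval -0.12 to 0.17) and that of IRF3 was 0.03 (95% interval -0.12 to 0.19), with limma adjusted p of 0.828 and 0.795. Both values lay near the median of all genes, and both upper bounds lay below the lower bound of STING1 (0.29); the difference between these genes was not itself tested. The sign turned with array medians subtracted for TBK1 and without unirradiated replicate 3 for IRF3, at -0.0048 and -0.008. Activation of TBK1 and IRF3 is by phosphorylation, which an mRNA array does not read.

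RIGI, the RNA sensor, was dim in these cells. It read 3.86, 3.97 and 3.83 on the unirradiated arrays and 3.63, 3.74 and 3.72 on the irradiated arrays, so each irradiated value was lower than each unirradiated value. These readings lay near or under the lower quartile of the arrays (3.89 to 3.97), and with no detection calls in the table it is unknown whether they exceed background. Groups without overlap occurred for 2 of the 7 members, STING1 and RIGI, and for 34.7% of all genes. The RIGI difference was -0.19 ± 0.07 (SE), with a 95% interval from -0.35 to -0.03, an unadjusted p of 0.0228 and a limma adjusted p of 0.103, which did not pass. It passed with quantile normalization (adjusted p 0.0425) and with array medians subtracted (adjusted p 0.0486), and over its 15 alternatives the limma adjusted p ran from 0.0425 to 0.289.

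MAVS, the adaptor that RIG-I activates, read 8.20, 8.32 and 8.15 on the unirradiated and 8.18, 8.02 and 8.18 on the irradiated arrays. The groups overlapped, and the difference was -0.10 ± 0.08 (SE), with a 95% interval from -0.27 to 0.07 and a limma adjusted p of 0.423. AIM2, the inflammasome sensor, read 8.41, 8.46 and 8.23 without irradiation and 8.12, 8.37 and 8.45 with it. Its groups overlapped and it had the largest SE of the 7 members, with a difference of -0.06 ± 0.10 (SE) and a 95% interval from -0.28 to 0.17 (limma adjusted p 0.742). The sign for AIM2 turned without irradiated replicate 1, to 0.04, and with quantile normalization, to 0.000058.

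**Figure D2:**
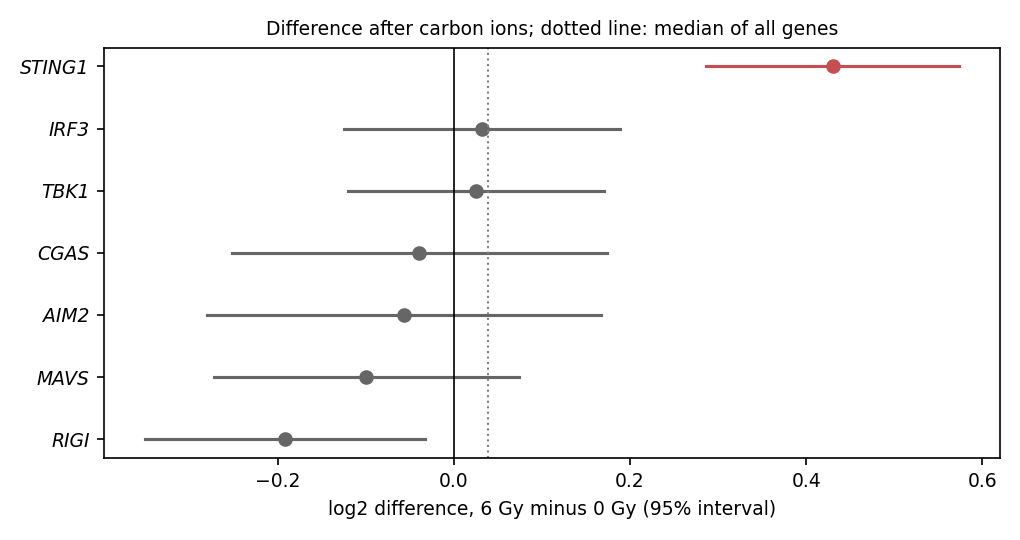
Log2 difference of each member, 6 Gy minus 0 Gy (x axis, log2 units), as a point with its 95% interval; STING1, in red, passed the test and the grey members did not, and the dotted line is the median of all genes (0.04). The interval of STING1 runs from 0.29 to 0.57, and the intervals of the other members end at or below 0.19.

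Before irradiation 6 of the members were bright and RIGI was not. Brightness is given as the percentile of a gene's log2 value among the 18417 named genes of the same array, averaged over the 3 unirradiated arrays. It was 85.4 for CGAS, 84.7 for IRF3, 78.2 for TBK1, 76.9 for STING1, 75.6 for AIM2, 73.7 for MAVS and 14.3 for RIGI. Probe sets differ in how strongly they hybridise, so these percentiles do not rank the transcripts against each other. After irradiation STING1 stood at a percentile of 82.6 and RIGI at 10.3, and the other 5 stayed between 73.2 and 85.2.

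The 2 genes of the whole array whose values followed STING1 most closely over the 6 arrays were BAG3, encoding a heat-shock co-chaperone, and IFI6, an interferon-stimulated gene, both with a Pearson r of 0.998. The 6 points share the same 2 groups, and 474 genes had an r above 0.95, so such a correlation mainly describes a clear difference between the groups. In limma, BAG3 rose by 0.85 log2 units (adjusted p 8.06e-05) and IFI6 by 0.44 (adjusted p 0.00237).

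Of 21 other measured sensors of foreign nucleic acid, 2 rose, 1 fell and 18 did not pass, with a median of -0.01; the share called was 14.3% against 14.5% of all genes, which is at the background. TLR9, the endosomal receptor for unmethylated CpG DNA, rose from 10.33, 10.35 and 10.34 to 11.07, 11.08 and 11.07, a log2 difference of 0.73 ± 0.06 (SE) and 1.66-fold (limma adjusted p 1.03e-04). The TLR9 values were nearly equal within each group, and the groups lay far apart. OASL, an interferon-induced relative of the oligoadenylate synthetases that enhances RIG-I signalling, rose by 0.41 (limma adjusted p 0.0247). ZBP1, a sensor of left-handed nucleic acid, fell by 0.35 (limma adjusted p 0.0105). IFI16, a nuclear and cytosolic DNA sensor related to AIM2, differed by -0.11 (limma adjusted p 0.321), and IFIH1, which encodes the long-RNA sensor MDA5, differed by 0.19 (limma adjusted p 0.151). The OASL call ended without unirradiated replicate 1 (adjusted p 0.0836) and without unirradiated replicate 2 (adjusted p 0.0859).

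Among 25 measured regulators of STING and of cGAMP, 1 rose, 2 fell and 22 did not pass, with 12% called against 14.5% of all genes and a median of 0.04, close to that of all genes. INSIG1, a sterol-sensing protein of the endoplasmic reticulum that takes part in a ubiquitin ligase complex acting on STING, fell from 11.21, 11.34 and 11.24 to 10.67, 10.90 and 10.83. All irradiated values of INSIG1 were below the unirradiated ones, and the difference was -0.47 ± 0.08 (SE; limma adjusted p 0.00478). TRIM56, a ubiquitin ligase that acts on cGAS and STING, fell by 0.45 (limma adjusted p 0.00593). ABCC1, an export pump that can carry cGAMP out of cells, rose by 0.24 (limma adjusted p 0.0362). The ABCC1 call ended without any 1 of the arrays other than irradiated replicate 2, with an adjusted p of up to 0.108, and ENPP1, the enzyme that degrades extracellular cGAMP and was named after its values were seen, was dim at 3.34 to 3.48 on the unirradiated arrays.

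Regulators of RIG-I and MAVS held 1 higher, 4 lower and 17 uncalled genes of 22, with a median of -0.08. The share called was 22.7% against 14.5% of all genes, and 8.18% of all genes were called lower. The 14.5% was not matched for brightness, the list having a median brightness percentile of 78.1 without irradiation. The list was also chosen with earlier results of these data known, which can affect its share. TRIM25, a ubiquitin ligase that activates RIG-I, fell from 10.44, 10.38 and 10.33 to 9.99, 10.08 and 9.96, a difference of -0.37 ± 0.07 (SE; limma adjusted p 0.00687). TRAF5, an adaptor downstream of receptors of the TNF family, fell by 0.41, PRKRA, which encodes the double-stranded RNA binding protein PACT, fell by 0.32, and TRIM4, a further ligase of RIG-I, fell by 0.26 (limma adjusted p 0.0112, 0.018 and 0.0265). FADD, a death-domain adaptor, rose by 0.27 (limma adjusted p 0.0285) and was named after its value was seen. With 1 array left out the calls of TRIM25 and TRAF5 stood, whereas that of PRKRA ended without unirradiated replicates 1 and 3 (adjusted p 0.0742 and 0.0602), and those of TRIM4 and FADD ended without any 1 array other than irradiated replicate 3 (up to 0.0803 and 0.0913). The count of 5 called genes thus fell to 2 or 3 without each array other than irradiated replicate 3.

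The kinases and transcription factors that act beside TBK1 and IRF3 included 1 higher, 5 lower and 13 uncalled genes of 19. Their median was -0.03. The share called was 31.6% against 14.5% of all genes, and 8.18% of all genes were called lower. Here too the 14.5% was not matched for brightness, the list having a median brightness percentile of 71.3 without irradiation. The list was likewise chosen with earlier results of these data known. IKBKB, encoding the kinase IKK-beta that releases NF-kappaB, fell most: from 7.40, 7.57 and 7.38 to 6.37, 6.54 and 6.43. All irradiated values of IKBKB were below the unirradiated ones, and the difference was -0.9995 ± 0.08 (SE), 2.00-fold lower, with a limma adjusted p of 7.1e-05. IKBKE, encoding the TBK1-related kinase IKK-epsilon, rose from 8.48, 8.63 and 8.54 to 8.82, 8.82 and 8.76, a difference of 0.25 ± 0.07 (SE; limma adjusted p 0.0398). NFKB1, an NF-kappaB subunit gene, fell by 0.33 and EP300, a coactivator of IRF3, fell by 0.28 (limma adjusted p 0.0352 and 0.0448). IRF1 and DDX39A, named after their values were seen, fell by 0.27 and 0.25 at the edge of the threshold (limma adjusted p 0.0469 and 0.0487). The call of IKBKB stood without any 1 array (its limma adjusted p was at most 0.0226 over 16 alternatives), whereas the list's count was 1 without irradiated replicate 1 or any 1 unirradiated array, 3 without irradiated replicate 2 and 2 without irradiated replicate 3. The calls of IKBKE and DDX39A ended without each of the 6 arrays in turn (up to 0.137 and 0.16), those of NFKB1 without each except irradiated replicate 3 (up to 0.126), and those of EP300 and IRF1 without each except irradiated replicate 2 (up to 0.144 and 0.155).

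Nucleases and related enzymes acting on the cell's own DNA, RNA or deoxynucleotides formed a list of 18 measured genes. Of these, 6 fell, 1 rose and 11 did not pass, with a median of -0.14 against 0.04 over all genes. Not all of them remove nucleic acid as TREX1 does. The share called was 38.9% against 14.5% of all genes, of which 8.18% were called lower. The nucleases were bright, at a median brightness percentile of 83.3 without irradiation, and the 14.5% was not matched for brightness. This list, too, was chosen with earlier results of these data known. DNASE2, the lysosomal DNase, fell from 8.68, 8.73 and 8.58 to 8.12, 8.21 and 8.27, a difference of -0.47 ± 0.07 (SE; limma adjusted p 0.00303). PLD4, a lysosomal exonuclease that limits nucleic acid reaching the Toll-like receptors, fell by 0.44 (limma adjusted p 0.00735), and its relative PLD3 fell by 0.26 (limma adjusted p 0.0295). RNASET2, a lysosomal RNase, fell by 0.39 (limma adjusted p 0.0118). The other fallers act on nuclear DNA: MRE11, the nuclease of the break-binding complex, fell by 0.36, and MUS81, a structure-specific endonuclease, fell by 0.33 (limma adjusted p 0.0224 and 0.0301). SAMHD1, which depletes deoxynucleotides, rose by 0.26 (limma adjusted p 0.0314); it, PLD3 and MUS81 were named after their values were seen. The calls of DNASE2 and PLD4 stood without any 1 array, that of RNASET2 ended without unirradiated replicate 1 (0.0517), that of MRE11 without each array except unirradiated replicate 1 and irradiated replicate 2 (up to 0.0863), that of MUS81 without each except unirradiated replicate 3 and irradiated replicate 2 (up to 0.114), and those of PLD3 and SAMHD1 without each array except irradiated replicate 3 (up to 0.101 and 0.102). The count of 7 was 3 without unirradiated replicates 1 and 2 and irradiated replicate 1, and 4 without unirradiated replicate 3.

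Partners of AIM2 in the inflammasome were mostly dim and 17 of 18 did not pass, with a median of 0.02 and 5.6% called against 14.5% of all genes. PYCARD, the adaptor that joins AIM2 to caspase-1, read 9.47, 9.65 and 9.57 without and 9.78, 9.87 and 9.70 with irradiation, a difference of 0.22 ± 0.08 (SE; limma adjusted p 0.0889). CASP1, the caspase itself, differed by -0.02 ± 0.09 (SE; limma adjusted p 0.924), a value whose sign turned in 4 of 16 alternatives. CARD17P, a caspase-1-like pseudogene whose close relatives may share its probes, rose by 0.34 (limma adjusted p 0.0176), and that call ended without unirradiated replicate 1 (adjusted p 0.0731). Without irradiated replicate 2 the count of called genes was 2.

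**Figure D3:**
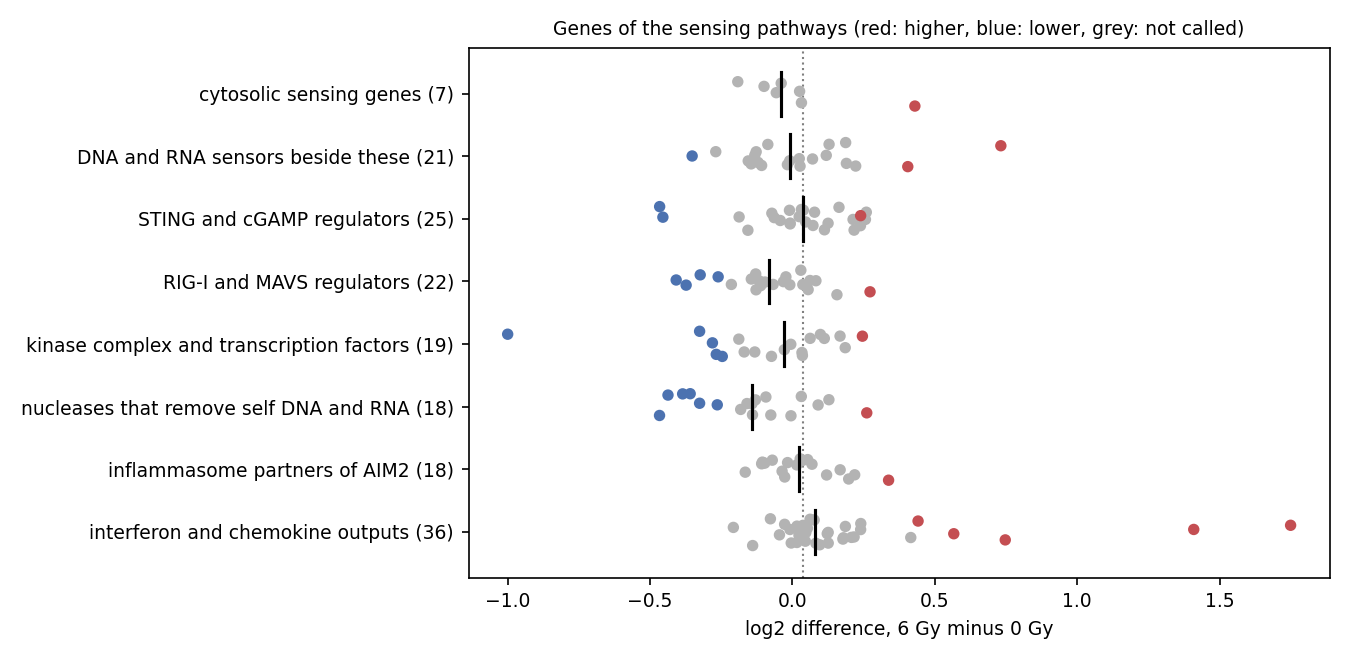
Log2 difference, 6 Gy minus 0 Gy (x axis, log2 units), of every measured gene in the 7 members and 7 neighbouring lists (rows, number measured in brackets), red for called higher, blue for called lower, grey for not called, with the list median as a black line and the median of all genes dotted. The nucleases have the lowest list median (-0.14), and the largest differences are those of IKBKB (-0.9995), CXCL10 (1.41) and CXCL9 (1.75).

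Genes that the sensors switch on through IRF3 and NF-kappaB ranged from uncalled to clearly higher. Of 36 measured interferon and chemokine outputs, 5 rose, 0 fell and 31 did not pass, and their median was 0.08. The share called was 13.9%, all of it higher. With dim genes dropped, array medians subtracted or a trended robust prior, 5 outputs were called higher and 1 lower. BST2, an output named after its values were seen, differed by -0.21 (limma adjusted p 0.0663), and its groups did not overlap. Over all genes 14.5% were called, 6.35% higher and 8.18% lower. IFNB1, the interferon-beta gene, read 3.22, 3.25 and 3.47 on the unirradiated and 3.44, 3.36 and 3.39 on the irradiated arrays. Its groups overlapped at a dim level, a brightness percentile of 5.53 before irradiation, and the difference was 0.08 ± 0.08 (SE) with a 95% interval from -0.10 to 0.26 (limma adjusted p 0.535). The upper bound lies under the size of the STING1 difference, but at so dim a level a change can be understated.

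The genes of this list that rose included chemokine genes. CXCL10 read 7.38, 7.68 and 7.35 without and 9.08, 8.83 and 8.72 with irradiation, a difference of 1.41 ± 0.11 (SE; limma adjusted p 7.7e-05). CCL5, a chemokine that draws T cells and monocytes, rose from 9.40, 9.25 and 9.29 to 9.84, 9.97 and 9.83, a difference of 0.57 ± 0.07 (SE; limma adjusted p 0.00119). CXCL9, which like CXCL10 is a ligand of CXCR3, rose from 4.56, 4.53 and 4.61 to 6.42, 6.61 and 5.92. The CXCL9 difference was 1.75 ± 0.15 (SE, limma adjusted p 9.2e-05). Without irradiation CXCL9 was dim, at a brightness percentile of 24.0, and its irradiated values varied, with an SD of 0.36. SAMD9L, an interferon-inducible antiviral gene, rose by 0.75 and IFI6 rose by 0.44. The groups did not overlap for any of these 5 genes, and their calls stood in each of the 16 alternatives. Over the whole list the groups did not overlap for 9 of the 36 outputs, against 34.7% of all genes.

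Several widely used interferon-stimulated genes did not pass. ISG15, a ubiquitin-like modifier, read 6.05, 5.67 and 5.83 without and 5.98, 5.95 and 6.16 with irradiation, a difference of 0.18 ± 0.10 (SE; limma adjusted p 0.275). IFIT1, which binds foreign RNA caps, read 4.47, 4.33 and 4.38 without and 4.32, 4.90 and 4.52 with irradiation, a difference of 0.19 ± 0.13 (SE; limma adjusted p 0.361). The groups of both genes overlapped. Core matches of the kind shown in the promoters above were found for 27 of the 30 outputs with a promoter in the reference table, whether or not the gene was called, and several of these are interferon genes that are close copies of one another.

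**Figure D4:**
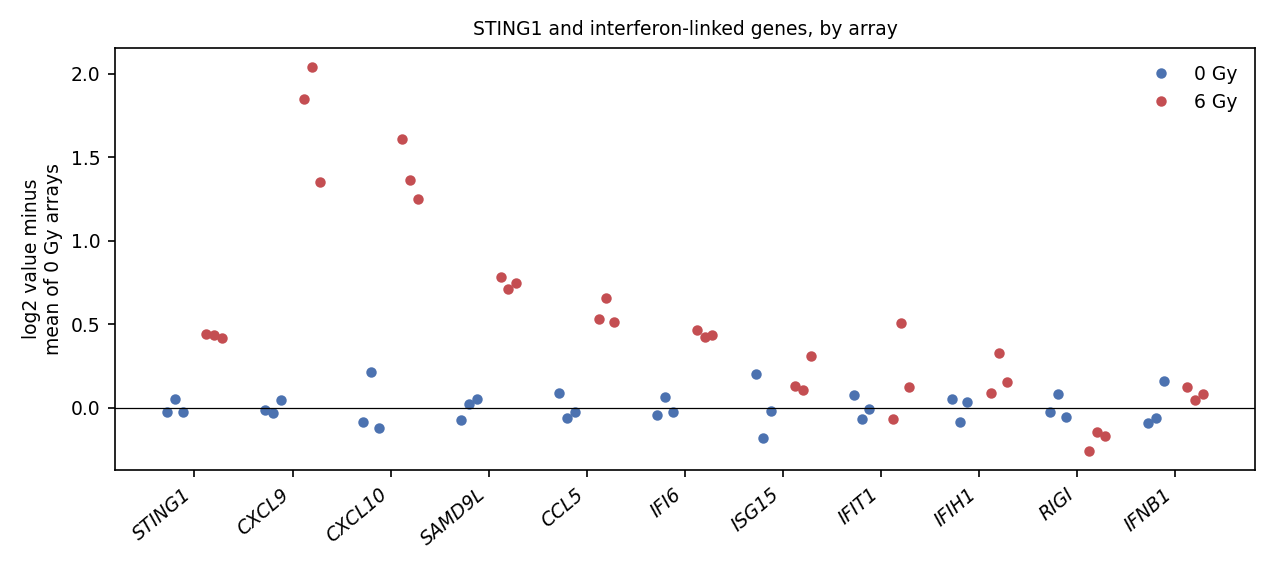
Log2 value on each array minus the mean of the 3 unirradiated arrays (y axis, log2 units) for STING1 and 10 interferon-linked genes (x axis), blue for 0 Gy and red for 6 Gy. STING1, CXCL9, CXCL10, SAMD9L, CCL5 and IFI6 show no overlap and lie higher after irradiation, while ISG15, IFIT1 and IFNB1 overlap. IFIH1 lies higher and RIGI lower, both without overlap and neither called.

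Across the arrays the median log2 value lay between 5.64 and 5.72, and the number of arrays limits the precision, with a median SE of 0.08 for a gene's difference. Plasma cell markers were mostly bright, and the 12 genes had a median brightness percentile of 95.7 on the unirradiated arrays. SDC1, the surface proteoglycan CD138, stood at 9.98, whereas SLAMF7 was dim at 4.63, a percentile of 24.9. Of the 12 genes, 1 rose and 3 fell. Markers of other cell types were dimmer as lists, with median percentiles of 26.6 for monocytes and macrophages, 35.6 for T and NK cells and 23.3 for fibroblasts. Single genes departed from this, such as the macrophage marker CD68 at a percentile of 91.6. None can be called absent without detection calls. Called genes were 1 higher and 0 lower of 12 for monocytes and macrophages, 2 higher and 1 lower of 12 for T and NK cells and 3 higher and 0 lower of 10 for fibroblasts; the shares called were 33.3% for plasma cell markers and 8.3%, 25% and 30% for these 3 lists, against 14.5% of all genes (6.35% higher and 8.18% lower). Summed log2 levels of these 3 lists ran from 60.0 to 61.8, 62.1 to 63.4 and 44.0 to 44.6 on the unirradiated arrays. On the irradiated arrays they ran from 62.7 to 63.3, 64.1 to 66.1 and 45.8 to 47.1. The sum of the plasma cell markers went the other way, from 122.7 to 122.8 without and 121.5 to 122.4 with irradiation. The dimmest 6139 genes (33.3%) had a median difference of 0.07 and the brightest 33.3% one of -0.02, and the part of either in the results above was not tested.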

How the data were processed

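Gene expression was measured on 6 one-colour, biotin-labelled arrays, 3 per dose, grouped by the dose in the labels; total RNA was extracted with Trizol, per the labels' protocols. The file holds the authors' deposited values for 33297 probe sets, read as log2 intensities because they run from about 2 to 14; the base is inferred, every fold rests on it, and the software, background correction and normalization were not given in the sources used here. Names come from the platform annotation: of the probe sets, 19460 list 1 gene symbol, 1754 several and 12083 none; 19429 of the 19460 matched RefSeq by Entrez ID and 0 symbols changed. The probe set with the highest mean over the 6 arrays stood for a gene.

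Doses were compared with limma 3.58.1 (lmFit, eBayes, two-sided, no covariate, no filter; 4 residual and 5.85 prior degrees of freedom) in R 4.3.3, with Benjamini-Hochberg adjustment over 18417 genes. Steps were tested on simulated data. Single genes were not tested by permutation, since 3 arrays against 3 cannot give an exact p under 0.1. Standard deviations are over 3 arrays. Lists are described by counts and medians. Named were all members, up to 4 called genes of smallest p per list (or the gene of smallest p), 9 set genes and the 2 genes most correlated with a called member. The members and lists were chosen with earlier results of these data known. Promoters are RefSeq windows of GRCh38.p14. Tables used pandas 2.3.3 and numpy 2.4.6 in Python 3.11.15, and figures matplotlib 3.10.9. Alternatives were the sample number as a block, each array left out, dim genes dropped, 2 normalizations, a trended robust prior, array weights, averaged probe sets, all probe sets, a threshold of 0.01 and no variance prior.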

Additional observations from a re-analysis of the deposited data

How the results depend on the processing

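STING1 kept its direction and its call in all 16 alternatives, and MAVS kept its sign and stayed uncalled in all 16. RIGI has no value without the dimmest 33.3% of genes, to which it belongs; it passed with quantile normalization (-0.22, adjusted p 0.0425) and with array medians subtracted (-0.22, adjusted p 0.0486), so 2 members were called in each of these. Signs that turned among uncalled genes were those of CGAS (without 1 array, from -0.147 to 0.0437), IRF3 (without 1 array, from -0.00801 to 0.0778), TBK1 (-0.0048 with array medians subtracted), AIM2 (0.000058 with quantile normalization, and from -0.127 to 0.0411 without 1 array) and CASP1 (0.018 with quantile normalization, and from -0.121 to 0.0463 without 1 array). The cause was not tested.

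The count of 2676 changed genes became 1381 with all probe sets tested, 956 with a plain linear model and 1077 at an adjusted p under 0.01, and ran from 1471 to 2184 with 1 array left out. In the order all probe sets, plain model and 0.01 threshold, called genes were 2, 2 and 1 for RIG-I and MAVS regulators (5 at first), 1, 2 and 1 for kinases and factors (6 at first), 3, 1 and 2 for nucleases (7 at first) and 0, 0 and 0 for inflammasome partners (1 at first); DNA and RNA sensors fell from 3 to 1 at the 0.01 threshold. Without the dimmest 33.3%, 5 sensors, 5 STING regulators and 0 inflammasome partners were called. In that setting 3178 genes were called over the array in place of 2676, although 6139 genes had been dropped. STING regulators, 3 at first, counted 5 with quantile normalization, 5 with a trended robust prior and 6 with array weights. Inflammasome partners counted 2 with quantile normalization and 2 with the trended robust prior. The count over all genes rose as well, to 2800 with quantile normalization, 3237 with the trended robust prior and 2974 with array weights. With 1 array left out the counts ran from 2 to 5 for RIG-I and MAVS regulators, 1 to 3 for kinases and factors, 3 to 5 for nucleases, 0 to 2 for inflammasome partners, 2 to 4 for STING regulators, 2 to 3 for sensors and 5 to 6 for outputs. All outputs called with 1 array left out were higher. Outputs counted 5 higher and 1 lower without the dimmest 33.3%, with array medians subtracted and with the trended robust prior.

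The labels number the samples of both groups 1 to 3. Deviations of same-numbered samples from their group means correlated at -0.04, 0.10 and -0.11 over genes, and not every sample correlated best with its own number. The highest values were 0.15 for unirradiated 3 with irradiated 1 and 0.12 for unirradiated 1 with irradiated 3. With 3 arrays per group such small values cannot tell whether samples were paired or shared a batch. With the number as a replicate block, 1919 genes changed, STING1 kept its call (adjusted p 0.0125) and 1 member was called, while RIG-I and MAVS regulators counted 3 and kinases and factors 1. The baseline levels of the members and the single genes of the neighbouring lists were recomputed by alternatives chosen after seeing the data. Dim probe sets such as those of RIGI and IFNB1 limit what can be read, since signal over background is not in the table.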

Other observations

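The STING1 difference was of ordinary size for a called gene. Among the 1169 genes called higher, 311 had a log2 difference at least as large, and the median difference of these 1169 was 0.35 against 0.43 for STING1. By p-value STING1 ranked 454 of the 18417 genes. At an unadjusted p under 0.05, 2 of the 7 members (28.6%) and 29.8% of all genes passed.

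The list of sensors held 3 endosomal Toll-like receptors of nucleic acid, of which TLR9 was called. TLR9 stood at a brightness percentile of 93.9 before and 96.9 after irradiation, and its difference of 0.73 was larger than that of any of the 7 members. TLR7, the related receptor for single-stranded RNA, read 8.52, 8.70 and 8.56 on the unirradiated arrays and 8.18, 8.42 and 8.38 on the irradiated arrays. The TLR7 values did not overlap between the groups, and the difference of -0.27 ± 0.09 (SE) did not pass (limma adjusted p 0.0655). TLR3, the receptor for double-stranded RNA, read 5.45, 5.79 and 5.49 without and 5.62, 5.70 and 5.48 with irradiation. The TLR3 groups overlapped, with a difference of 0.02 ± 0.10 (SE; limma adjusted p 0.895). TLR7 and TLR3 were named after their values were seen.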
